A study of Arabidopsis thaliana with 42 samples.

Results

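NIA2 and NIR1 encode the enzymes that carry out the 2 reduction steps between nitrate and ammonium, and they were followed here in the roots of 7 Arabidopsis thaliana accessions. They were chosen by gene identity, with earlier results of these data known. Their probe sets are those of locus AT1G37130 on chromosome 1 (NIA2) and of locus AT2G15620 on chromosome 2 (NIR1). These are 2 of the 22810 probe sets on the ATH1 array, an Affymetrix chip for the Arabidopsis genome. A table published with the study lists the same signals under other probe set names, with rows that look shifted, and the names of the deposited matrix were used throughout. The accessions were Col0, Kas2, NFA8, SQ8, TAMM27, Ts5 and Var2-1, each a natural inbred line. Seedlings grew in hydroponic culture with 0.5 mM ammonium succinate as the nitrogen source and 3 mM sucrose. At an age of 12 days KCl (5 mM) was added to the control cultures and KNO3 (5 mM) to the others, and whole roots were collected 2 hours later. All groups, the controls included, therefore had ammonium, and the KCl level is a level without added nitrate rather than one without nitrogen. Each of the 14 groups had 3 arrays, named as biological replicates in the labels, for a total of 42.

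Nitrate reductase transfers electrons from NADH or NADPH through FAD, heme and a molybdenum cofactor to nitrate and releases nitrite in the cytosol. Nitrite is toxic and is moved into plastids, where nitrite reductase, which carries siroheme and an iron-sulfur cluster, reduces it to ammonium with electrons from ferredoxin. In roots, which have no photosynthetic electron transport, ferredoxin is reduced by a root-type ferredoxin-NADP reductase with NADPH from the oxidative pentose phosphate pathway. Nitrate itself is a signal that raises transcripts of both enzymes in Arabidopsis.

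The values are MAS5 signals, in which the brightness of the elements of a probe set is combined into 1 linear value in arbitrary units. Array medians ran from 97.8 to 158, and between 49.5% and 62.5% of probe sets had a signal of 100 or more. Both members were above a signal of 100 in every array. Arrays of the same group correlated with r between 0.68 and 0.959 over probe sets. The log2 ratio of the 3' over the 5' control probe sets, a measure of RNA integrity and labelling, ran from 0.825 to 4.45, with 19 arrays under 2, 23 at or over 2, and 10 within 0.3 of that division. Fits within a ratio class kept only accessions with at least 2 arrays of each treatment in it, which left 13 arrays of Col0, NFA8 and SQ8 in the lower class and 18 of Kas2, TAMM27, Ts5 and Var2-1 in the higher, so that ratio class and accession cannot be told apart there. The signals of 3 shoot photosynthesis genes (PSAE1, RCA and LHCB4.1, 3 of the 5 on the list) summed to a group mean between 562.3 (Var2-1 KCl) and 12150 (Var2-1 KNO3), where the highest array reached 35090. The root marker PYK10, a root beta-glucosidase, had group means from 3994 to 9979, while those of the root hair expansin EXPA7 ran from 27.2 to 416. In bulk roots, fewer cells of a type and less RNA per cell cannot be told apart.

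The first question was whether the nitrate reductase NIA2 was higher after KNO3 than after KCl. Its mean was higher in each of the 7 accessions, as for 1.13% of probe sets, but no accession separated the treatments fully. Such separation, with KNO3 higher, was uncommon, from 3.4% of probe sets in Col0 to 8.56% in Kas2. Averaged over accessions, the 1.6-fold NIA2 difference did not pass the test across all probe sets. In Col0 the 3 KCl arrays had signals of 2663.7, 5255.9 and 2524.8, and the KNO3 arrays 2177.9, 9884.4 and 5760.1. The lowest KNO3 array lay under all KCl arrays, and the highest of each treatment was replicate 2. In Kas2 the KCl signals were 1860.8, 2518.6 and 1283.7, against 2192.5, 2322.9 and 4230.5 in KNO3. Here only KNO3 replicate 3 stood above all KCl arrays. In NFA8 NIA2 gave 2864.6, 1632.7 and 2496.4 in KCl and 5332.4, 1562.2 and 4713.7 in KNO3, so that KNO3 replicate 2 was the lowest of the 6 arrays.

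For SQ8 the NIA2 signals with KCl were 431.7, 1294.3 and 467.5, of which the first and last were the lowest of the series, and those with KNO3 were 1002.5, 1643.5 and 2346.6. Overlap came from KCl replicate 2 alone. In TAMM27 the signals were 3217, 1576 and 2790.2 in KCl and 7050.3, 1896.1 and 6242.7 in KNO3, and KNO3 replicate 2 was again low. Ts5 had 1630.8, 2655.8 and 3578.9 in KCl and 3083.6, 2061.6 and 3879.5 in KNO3. Its arrays were interleaved. Var2-1 had 2812.9, 923.6 and 1290.4 in KCl and 7413.6, 984.4 and 1574.8 in KNO3, and the single high array of each treatment was replicate 1. That KNO3 array is also the one with the high shoot marker sum, 35090, against 860.3 or less in the other Var2-1 arrays, and the part of shoot RNA in its NIA2 signal was not tested.

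On the log2(signal + 1) scale the NIA2 response, KNO3 minus KCl, ranged from 0.22 in Ts5 to 1.29 in SQ8 (SE 0.625 each, from the spread pooled over groups of 3 arrays). The averaged response was 0.68 (SE 0.236, 95% interval 0.2 to 1.16), a fold of 1.6. In the limma fit across 12612 probe sets this had an adjusted p = 0.281, over the false discovery rate of 0.1 used throughout. At that rate 0.84% of the probe sets tested were called in either direction and 0.389% were called as higher in KNO3. Without the Var2-1 KNO3 array of high shoot signal it was 0.558 (adjusted p = 0.355). Taken alone, with treatment labels permuted within accessions, the averaged NIA2 response had a permutation p = 0.00665, which is not adjusted for the other probe sets. Within accessions limma called 0 of 7 NIA2 responses. It called 0% of all probe sets in Col0 and Var2-1 and at most 1.17%, in Kas2, so that count says little about NIA2. Of the 7 responses 1 was under an unadjusted p of 0.05. This was the response of SQ8, with an unadjusted p = 0.0462 and an adjusted p = 0.474 in limma, and 10.1% of all probe sets were under 0.05 in SQ8.

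NIR1, the nitrite reductase, rose in the average over accessions, by 3.1-fold, and was among the higher-ranked probe sets of the array. Its mean was higher in KNO3 in every accession, from 6.43-fold in NFA8 to 1.04-fold in Var2-1, though no accession passed the test by itself. In Col0 the KCl arrays gave 1398.2, 9603 and 2391 and the KNO3 arrays 2658.7, 14363 and 8813.1. KCl replicate 2 was the highest of all KCl arrays of the series and lay above 2 of the Col0 KNO3 arrays. In Kas2 the KCl signals were 2659.8, 515.9 and 454.2 and the KNO3 signals 950.7, 1192.7 and 4303.9, so that KCl replicate 1 exceeded 2 of the KNO3 arrays. In NFA8 they were 609.4, 444.7 and 379.2 in KCl and 4201.8, 942.4 and 6933.4 in KNO3. Every NFA8 KNO3 array was above every KCl array.

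For SQ8 the NIR1 signals with KCl were 598, 677.7 and 518.9, and those with KNO3 were 1326.8, 2441.5 and 3258.5, again with no overlap. As background, KNO3 arrays all above the KCl arrays were found for 6.27% of probe sets in NFA8 and 4.82% in SQ8, and for 3.4% in Col0, 8.56% in Kas2, 4.68% in TAMM27, 5.19% in Ts5 and 3.67% in Var2-1. In TAMM27 the KCl arrays gave 314, 351.2 and 424.7, and the KNO3 arrays 4736.3, 406.6 and 5389.8. The KNO3 replicate 2 array stayed within the KCl range while the others lay far above it. Ts5 had 2175.5, 450.3 and 217.2 in KCl and 2491.5, 1396.1 and 4540.7 in KNO3, with KCl replicate 1 above 1 KNO3 array. The shoot marker sum also differed between treatments in Ts5, with means of 853.2 in KCl and 3935 in KNO3, and in SQ8, with 675.2 and 1334, and its part in these NIR1 signals was not tested. Var2-1 had 2055, 401.7 and 1456.8 in KCl and 1421.6, 499.6 and 1930.1 in KNO3, and the highest of its 6 arrays was a KCl array.

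**Figure D1:**
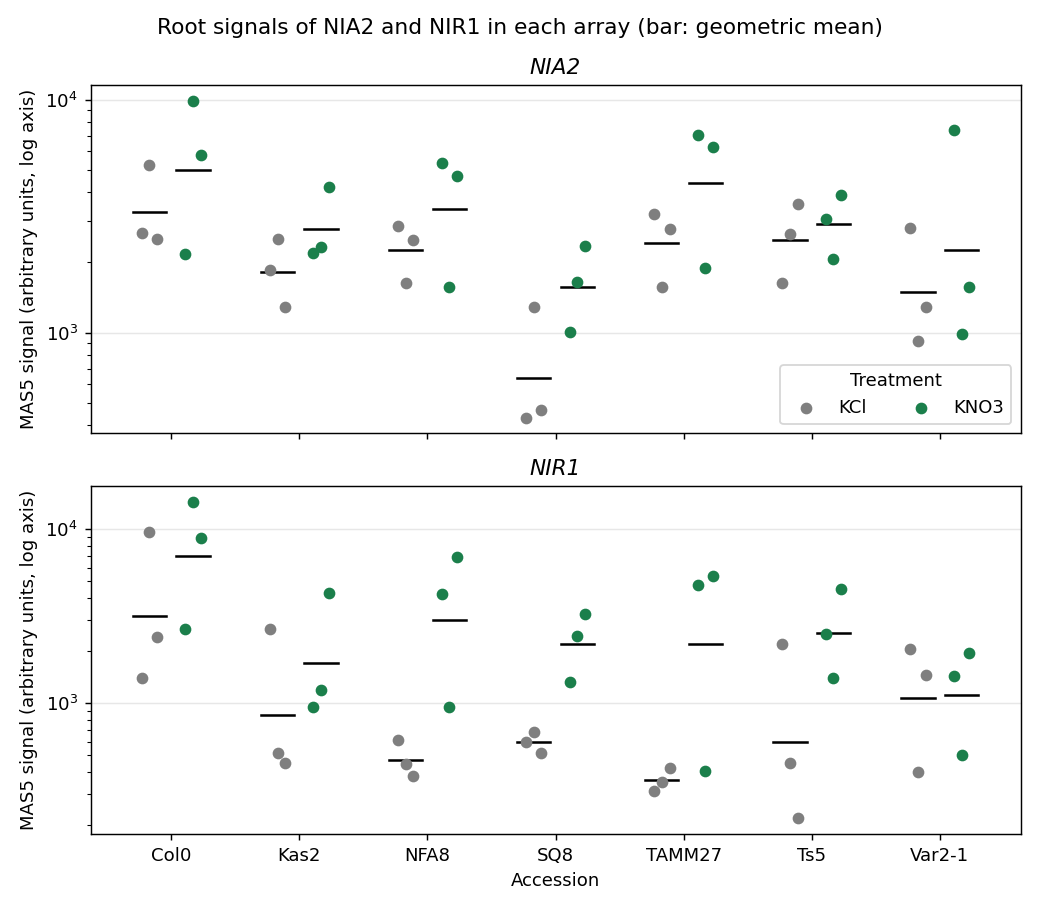
MAS5 signal (log axis) of NIA2 and NIR1 in each of the 42 arrays, by accession, with KCl arrays in grey, KNO3 arrays in green and black bars at the geometric mean of 3 arrays. NIR1 arrays of the treatments do not overlap in NFA8 and SQ8, and NIA2 arrays overlap in all 7 accessions. Between 3.4% (Col0) and 8.56% (Kas2) of probe sets had all KNO3 arrays above the KCl arrays.

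The averaged NIR1 response was 1.63 on the log2 scale (SE 0.346, 95% interval 0.927 to 2.33), with an adjusted p = 0.019 in limma. By p-value it was the 26th of 12612 probe sets and the 12th of those higher in KNO3. The corresponding test on NIR1 alone gave a permutation p = 2.00e-04, not adjusted for the other probe sets. The study had already listed NIR1 as responding to nitrogen on these arrays, so this p is no independent support. The call held with each of the 42 arrays left out in turn, where the response lay between 1.53 and 1.8. It was lost in the 13 arrays kept from the lower ratio class (response 1.58, adjusted p = 0.934) and in the 18 kept from the higher (response 0.87, adjusted p = 0.666). Limma called 0 averaged responses in the lower class and 31 in the higher, against 106 with all arrays. The loss in the lower class is therefore not particular to NIR1.

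By accession the NIR1 responses were 2.68 in NFA8, 2.59 in TAMM27, 2.07 in Ts5, 1.88 in SQ8, 1.13 in Col0, 0.99 in Kas2 and 0.06 in Var2-1 (SE 0.915 each). Limma called 0 of these 7, with a lowest adjusted p = 0.429, and 4 of 7 were under an unadjusted p of 0.05, those of NFA8, TAMM27, Ts5 and SQ8. In these accessions 3.81%, 4.76%, 9.97% and 10.1% of all probe sets were under that value. The order of the accessions rests on few arrays, since leaving out 1 array moved the response between 0.538 and 1.93 in Col0, 0.317 and 1.81 in Kas2, 1.34 and 3 in Ts5, 1.94 and 3.81 in TAMM27, and 2.08 and 3.52 in NFA8. Few probe sets were called within any accession, from 0% in Col0 and Var2-1, where 68 and 531 probe sets were under an unadjusted p of 0.05, over 0.0238% in NFA8, 0.182% in TAMM27, 0.278% in SQ8 and 0.587% in Ts5, to 1.17% in Kas2. A mean higher in KNO3 in all 7 accessions, as for both members, occurred for 1.13% of probe sets. This count is fragile, since the Var2-1 mean of NIR1 turned to lower in KNO3 without KCl replicate 2, KNO3 replicate 1 or KNO3 replicate 3 of that accession, and the NIA2 mean turned without Ts5 KCl replicate 1 or Var2-1 KNO3 replicate 1.

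Whether the response differed among accessions was tested as an interaction. It did not pass for NIA2 (unadjusted p = 0.945, adjusted p = 1 in limma) or for NIR1 (unadjusted p = 0.395, adjusted p = 1), in a test that called 0.23% of probe sets. Set against the mean of the other 6 accessions, the Var2-1 response of NIR1 was lower by a log2 difference of -1.83 (95% interval -3.84 to 0.18, adjusted p = 1, unadjusted p = 0.0731). That test called 0% of probe sets for Col0 and Var2-1, 0.0159% for NFA8, 0.0634% for TAMM27, 0.103% for SQ8, 0.325% for Ts5 and 0.365% for Kas2, and neither member for any accession. The intervals leave room for large differences in either gene: that of SQ8 NIA2 against the others ran from -0.66 to 2.09.

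**Figure D2:**
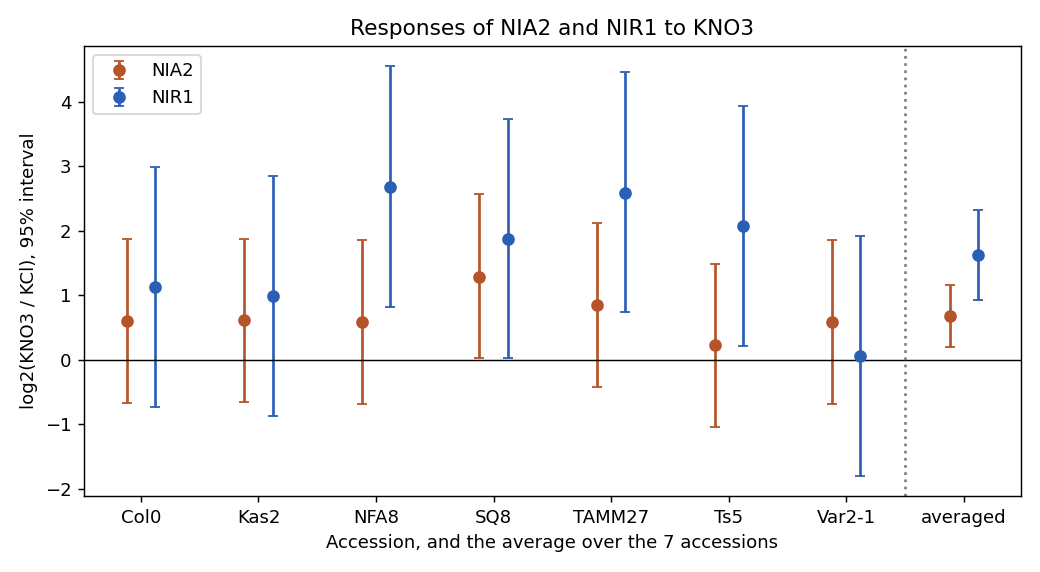
Response to KNO3, as log2 of KNO3 over KCl with its 95% interval, for NIA2 and NIR1 in each accession (3 arrays per treatment) and averaged over the 7 accessions at the right. The averaged value was 0.68 for NIA2 and 1.63 for NIR1, and the accessions' intervals overlap widely.

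Levels cannot be set side by side between probe sets, so the NIR1 and NIA2 responses were compared, array by array. The response of NIR1 was larger by 0.95 on the log2 scale, a factor of 1.93 (NIA2 minus NIR1 was -0.95, SE 0.304, 95% interval -1.57 to -0.327, two-sided permutation p = 0.00452). It was the larger of the pair in 6 of 7 accessions, all but Var2-1. The difference was -2.1 in NFA8, -1.85 in Ts5 and -1.74 in TAMM27, and between -0.59 and 0.53 in the remaining accessions. In Col0, where no element was removed, it was -0.526 (SE 0.804, exact permutation p = 0.4). Of the 6 other accessions, KCl and KNO3 signals came from the same elements in 0 for NIR1 and in 3 for NIA2. The part of this in the difference was not tested. Within 1 accession exact permutation p-values ran from 0.1 to 0.7, and 0.1 is the smallest that 3 against 3 arrays can give. The difference was -0.925 in the 13 arrays kept from the lower 3' to 5' ratio class (permutation p = 0.0626) and -0.389 in the 18 kept from the higher (permutation p = 0.605), which are also different accessions.

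The second question was the level before nitrate. In KCl, NIA2 had its highest geometric mean in Col0, 3282, followed by Ts5 (2493), TAMM27 (2419), NFA8 (2269), Kas2 (1819), Var2-1 (1497) and SQ8 (639.4). Neighbours in that order overlapped in every case. The 5.13-fold span was called among accessions by limma's F-test (adjusted p = 0.0744), as were 28.4% of all probe sets, so that a difference among accessions was common on these arrays. Of the 21 pairs of accessions 3 were called, and SQ8 was the lower member of each: against Col0 (5.13-fold, adjusted p = 0.0398), TAMM27 (adjusted p = 0.059) and Ts5 (adjusted p = 0.0764), where 3.58%, 12.5% and 6.11% of probe sets were called. The call among accessions was lost without Col0 KCl replicate 2 (adjusted p = 0.135), SQ8 KCl replicate 1 (0.245), SQ8 KCl replicate 3 (0.24) or TAMM27 KCl replicate 1 (0.104). In leave-one-out fits of the called pairs, a setting added after the data were seen, all 3 were lost without SQ8 KCl replicate 1 or 3, the highest adjusted p reaching 0.245, and each also without 1 array of its other accession: Col0 KCl replicate 2, TAMM27 KCl replicate 1 or Ts5 KCl replicate 3. The pair of SQ8 and Ts5 was also lost with array weights (adjusted p = 0.294), and that of Col0 and SQ8 in the arrays kept from the lower ratio class (0.141).

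NIR1 in KCl was ordered differently. Col0 was again first with a geometric mean of 3179, then came Var2-1 (1064), Kas2 (854.5), Ts5 (597.4), SQ8 (594.7), NFA8 (468.4) and TAMM27 (360.5), and all neighbours overlapped. The 8.8-fold span was not called (adjusted p = 0.12), but it was with array weights (0.00518) and with the replicate block (0.0971). It was also called in the arrays kept from the lower ratio class (0.0776) and without any of 4 single arrays (lowest 0.0624). In the other direction, the adjusted p was 0.698 without the Col0 groups and 0.443 without Col0 KCl replicate 2. In the arrays kept from the higher ratio class it was 0.667. Of the pairs only Col0 against TAMM27 was called (adjusted p = 0.0377, against 10.1% of probe sets). That pair was lost without Col0 KCl replicate 2, TAMM27 KCl replicate 1 or TAMM27 KCl replicate 2 (highest adjusted p = 0.215). Before the signals were computed, 3 NIR1 elements had been removed in TAMM27 KCl and none in Col0. The part of this removal in the pair was not tested. TAMM27 KCl arrays also had the highest shoot marker sums of the KCl groups, 5411 to 6488, and their part in the NIR1 level was not tested. Spread within a group was wide for NIR1: the SD of log2 values in KCl was 1.43 in Col0, 1.42 in Kas2, 1.7 in Ts5 and 1.24 in Var2-1, but 0.348 in NFA8, 0.22 in TAMM27 and 0.192 in SQ8.

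After KNO3 the NIA2 geometric means spanned 3.18-fold, from 1570 in SQ8 to 4987 in Col0, and those of NIR1 6.26-fold, from 1111 in Var2-1 to 6956 in Col0. Neither span was called (adjusted p = 0.291 and 0.305), while 29.2% of probe sets were. Col0 was highest and SQ8 lowest for NIA2 in both treatments. The TAMM27 mean of NIR1 moved from the lowest in KCl to the fifth in KNO3, and Var2-1 from the second to the lowest.

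Whether the members moved together was described by correlation over arrays and groups, which share libraries and scaling. Over the 14 group means of log2(signal + 1), NIA2 and NIR1 had r = 0.588 and rho = 0.64. Leaving out the 2 group means farthest from the median of NIA2 gave r = 0.411. Within the 7 KCl means r was 0.278, and within the 7 KNO3 means 0.629. The responses of the 7 accessions had r = 0.127 and rho = -0.143.

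Replicates of a group also varied together. The deviations of the 42 arrays from their group means had r = 0.587 (rho = 0.588) between the genes, and 0.595% of probe sets tested had a correlation with NIA2 at least as high. Over group means the corresponding share was 2.88%, and the share for NIR1's correlations was 2.08%. The within-group r was 0.765 in the 19 arrays with a 3' to 5' ratio under 2 and 0.451 in the other 23. The ratio itself had r = 0.0077 with the NIA2 deviations and -0.114 with those of NIR1. The summed shoot signal had r = 0.343 with the NIA2 deviations and 0.0033 with those of NIR1. Examples can be read from the values above: Col0 replicate 2 was the highest array for both genes in both treatments, and TAMM27 KNO3 replicate 2 the lowest of its group for both. Not every group went this way: Ts5 KCl replicate 1 was the lowest of its group for NIA2 and the highest for NIR1.

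**Figure D3:**
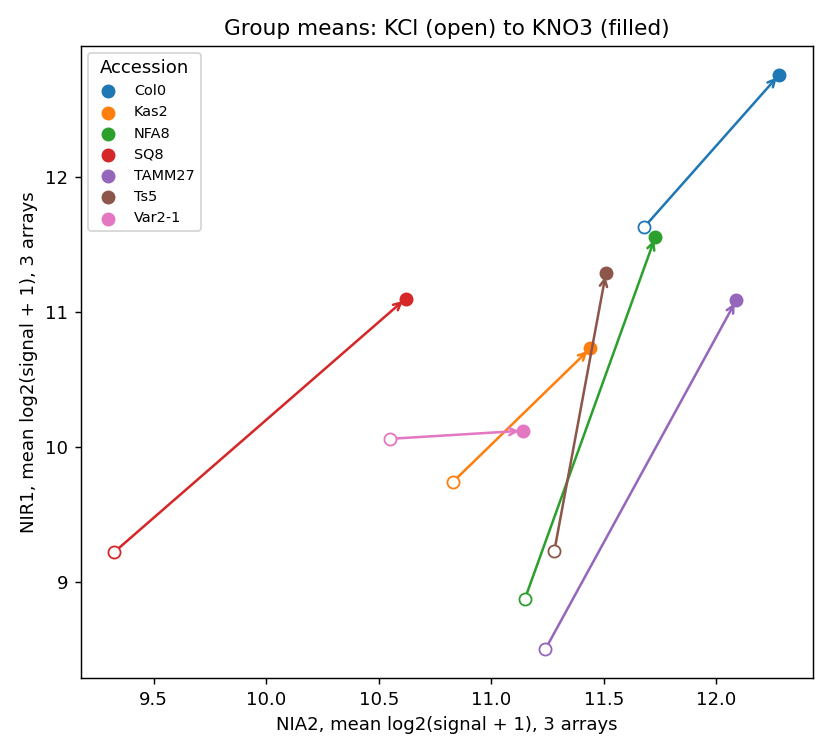
Mean log2(signal + 1) of NIR1 against that of NIA2 in the 14 groups (3 arrays each), with an arrow from KCl (open) to KNO3 (filled) for each accession. All arrows point to higher NIA2, those of NFA8, TAMM27 and Ts5 climb steeply in NIR1 and that of Var2-1 is nearly flat (NIR1 response 0.06).

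The arrays of a replicate number were set against each other as a further description of the treatment effect. NIR1 was higher in KNO3 in 19 of 21 same-numbered pairs, a count that 0.111% of probe sets reached, and the 2 exceptions were Kas2 replicate 1 and Var2-1 replicate 1. NIA2 was higher in 17 of 21, a count that 1.16% of probe sets reached. The fold of NIR1 ran from 0.357 in Kas2 replicate 1 to 20.9 in Ts5 replicate 3, and that of NIA2 from 0.776 in Ts5 replicate 2 to 5.02 in SQ8 replicate 3. The numbers do not pair the arrays by any stated link.

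The other genes of the pathway came from lists of 32 genes, of which 10 were named and tested here, 8 of them beyond the members. RFNR2, the root-type ferredoxin-NADP reductase that supplies electrons to ferredoxin, rose with NIR1 (1.49, SE 0.317, adjusted p = 0.019 in limma). Of the 8 it was the 1 gene called, in a test that called 0.84% of all probe sets. Its mean was higher in KNO3 in 6 accessions and lower in Var2-1 (-0.91), where the NIR1 response was 0.06, and higher by 2.53 in NFA8. Like that of NIR1, its call was lost in the arrays kept from either ratio class. The RFNR2 response was 1.74 in the lower (adjusted p = 0.934), where 0 averaged responses of any probe set were called. In the higher class, where 31 were called, it was 0.778 (adjusted p = 0.656). NRT2.1, a high-affinity nitrate transporter, had the largest value, 1.82 (SE 0.51), and did not pass (adjusted p = 0.121). It was, however, called in 11 of 55 other settings (lowest adjusted p = 0.0154). The study, by ANOVA on these arrays, had listed it with NIR1 among the genes responding in all accessions. The ferredoxin FD3, at 0.28, the dual-affinity transporter NRT1.1, at 0.26, and the cytosolic glutamine synthetase GLN1;2, at 0.11, did not pass either.

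On the cofactor side, CNX6, a subunit of molybdopterin synthase, had a response of 0.43 (adjusted p = 0.499) and CNX3, which acts early in molybdenum cofactor synthesis, -0.26 (adjusted p = 0.765). SIRB, the ferrochelatase of siroheme synthesis, was at -0.02. The median response of the 8 genes was 0.27, against -0.02 over all probe sets. All but CNX6 and SIRB were named through gene lists that the study chose on these arrays, which is no independent evidence of their direction. Within groups, the deviations of RFNR2 had r = 0.901 with those of NIR1 and 0.377 with those of NIA2, over 42 arrays. Those of FD3 had 0.729 with NIR1 and 0.455 with NIA2, and those of NRT1.1 0.548 with NIR1 and 0.631 with NIA2. Those of NRT2.1 had 0.361 with NIR1 and -0.0663 with NIA2. The share of all probe sets that reach such values was not computed. NIA1, the other nitrate reductase gene, was not analysed here.

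**Figure D4:**
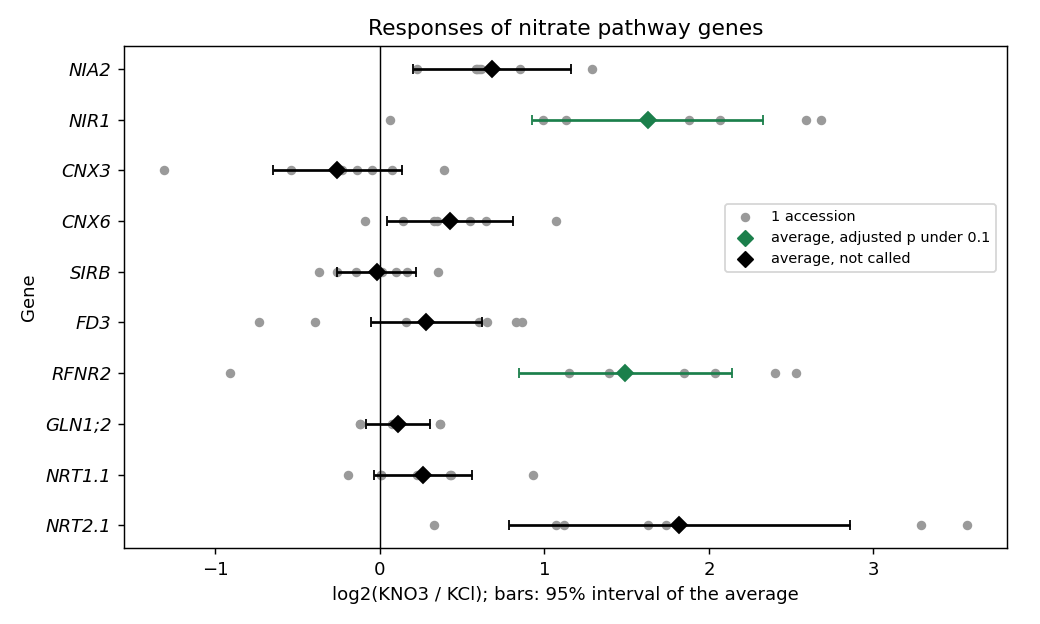
Averaged response to KNO3, log2 of KNO3 over KCl, with its 95% interval (diamond and bar) and the responses of single accessions (grey points) for the 10 pathway genes tested. NIR1 and RFNR2, in green, had an adjusted p under 0.1, as did 0.84% of all probe sets. The Var2-1 point of RFNR2 lies at -0.91.

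Among the 7351 tested probe sets with 1 gene name, those whose 14 group means were most like NIA2 were AT5G43140 (r = 0.884), AT4G16850 (0.868), the WNK-type kinase gene WNK7 (0.832), AT1G64140 (0.809) and ATOEP16-4 (0.808). Those most like NIR1 were AT1G14340 (0.925), RFNR2 (0.914), AT2G48080 (0.886), the glutathione transferase gene GSTF14 (0.849) and AT5G62440 (0.818). Of these 10, RFNR2 and GSTF14 (1.51, SE 0.343, adjusted p = 0.029) had an averaged response that passed the test. That test called 0.84% of all probe sets. The group means hold the KNO3 rise itself, so likeness to NIR1 favours genes that respond, and these calls are no independent support. Both genes were also named through gene lists that the study chose on these arrays. No gene was on both lists.

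The array was designed on Col0, and for the other accessions elements that stood apart from Col0 were removed before the signal was computed. Of the 11 elements of a probe set, NIA2 lost some in 4 of 12 accession and treatment lists and NIR1 in 10 of 12. Up to 4 were lost in a list for either gene. Most probe sets lost some: the share that lost none in a list ran from 8.44% in Ts5 KCl to 43.4% in NFA8 KNO3. NIA2 lost 2 elements in Kas2 KCl, 3 in Kas2 KNO3, and 4 each in SQ8 KNO3 and Ts5 KNO3. NIR1 lost none in TAMM27 KNO3 and Var2-1 KNO3 and most, 4, in Kas2 KCl. Element 5 of NIR1 was discarded in 7 lists and element 6 in 6.

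KCl and KNO3 signals of an accession were thus not always computed from the same elements. They were for NIA2 in 3 of 6 accessions, NFA8, TAMM27 and Var2-1, and for NIR1 in 0 of 6. In Col0, where no element was removed, the responses were 0.60 for NIA2 and 1.13 for NIR1. In TAMM27 3 NIR1 elements were removed from the KCl arrays and none from the KNO3 arrays, and in SQ8 4 NIA2 elements were removed from the KNO3 arrays alone. Col0, on which the array was designed, also had the highest geometric mean of both genes in both treatments. The part of the removal and of the array design in the responses and in the levels among accessions was not tested. Element values were not used here.

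**Figure D5:**
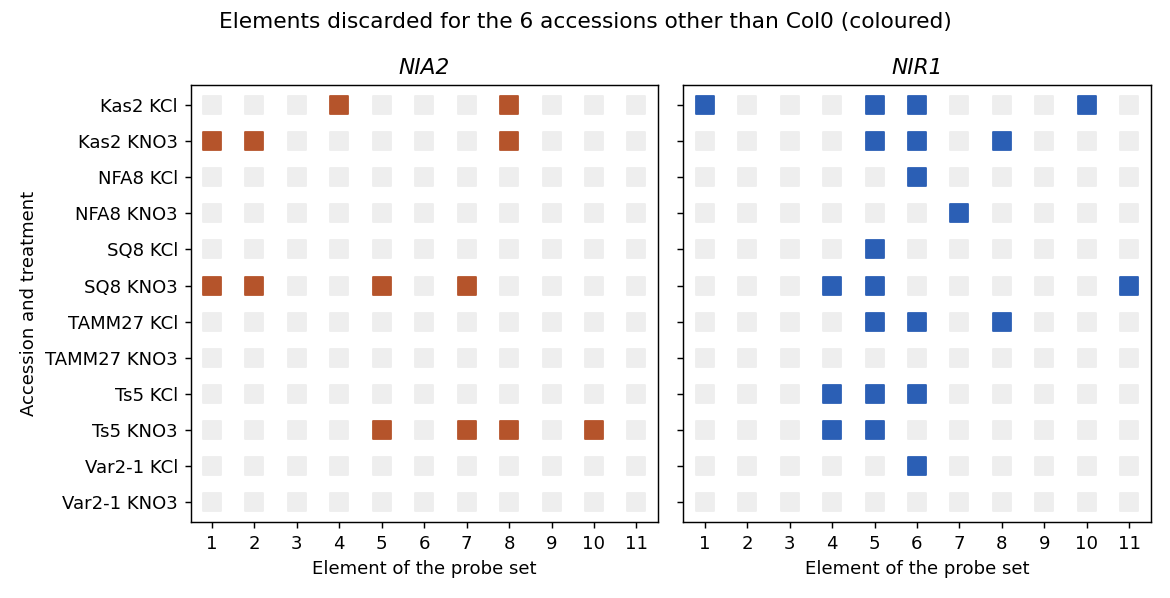
Elements 1 to 11 of the NIA2 and NIR1 probe sets (horizontal axis) that were discarded in each of the 12 lists for the 6 accessions other than Col0 (vertical axis, coloured squares). NIR1 has discarded elements in 10 lists, mostly elements 5 and 6, and NIA2 in 4. Of all probe sets, between 8.44% and 43.4% had none discarded in a list.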

How the data were processed

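Whole-root RNA was hybridised to 42 ATH1 arrays, 3 for each of 14 groups, and groups and replicates came from the sample labels. The deposited intensity values are linear MAS5 signals that the authors made with the Affymetrix software (version not given in the sources used here), after discarding outlier elements in the accessions other than Col0, with no further normalization stated. The discarded elements themselves are in 12 deposited lists, which hold no unit. Of 22810 probe sets 64 are controls, and the 12612 with a mean signal of at least 100 were tested.

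From these signals, log2(signal + 1) was fitted per probe set with 1 mean for each group, using limma 3.58.1 (R 4.3.3) and empirical Bayes variances that follow the mean signal. Contrasts were tested two-sided, and p-values were adjusted by Benjamini-Hochberg over all probe sets at 0.1. Permutation tests reassigned treatments within accessions, with 100000 resamples where not exact. Fold values and geometric means are on the log2(signal + 1) scale, which understates changes of dim genes. The number of arrays limits the precision. Genes named were the members, the genes of the pathway and marker lists, and for each member the 5 tested probe sets with 1 gene name and the highest r over group means. Names came from the platform annotation through RefSeq locus tags and, for the members and 761 of the tested probe sets, from the study's gene lists. Members and lists were chosen with earlier results of these data known. Alternatives changed the normalization, pseudocount, filter, variance model, array weights, replicate block, 3' to 5' ratio and the arrays used.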

Additional observations from a re-analysis of the deposited data

How the results depend on the processing

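The averaged NIR1 response stayed called and the averaged NIA2 response stayed uncalled under quantile normalization, median scaling, a pseudocount of 16, other signal filters, no variance trend, array weights, the ratio covariate and each single array left out. Median scaling moved the median response of all probe sets in NFA8 to -0.133. The permutation test on NIA2 alone (0.68, p = 0.00665) passed 0.05, unadjusted over probe sets. Restriction to probe sets with 1 annotated gene gave no value, since neither member is in the annotation.

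With array weights the KNO3 levels among accessions were called for NIA2 (adjusted p = 6.25e-04) and NIR1 (0.017), as were the KCl levels of NIR1 (0.00518) and its responses in NFA8 (2.71) and TAMM27 (2.8), and its Var2-1 response turned to -0.196. They called 641 averaged responses in place of 106, 1040 interactions in place of 29, and 10017 KCl and 10652 KNO3 differences among accessions in place of 3578 and 3688. The ratio covariate called 240 averaged responses and 101 interactions, and median scaling 17 interactions.

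In the 13 arrays kept from the lower ratio class the NIR1 response was 1.58, the response difference -0.925, and the adjusted p among accessions in KCl 0.174 for NIA2 and 0.0776 for NIR1. Limma called 0 averaged responses and 0 interactions there (633 and 471 under an unadjusted p of 0.05), with 823 KCl and 868 KNO3 differences. In the 18 kept from the higher class the NIR1 response was 0.87, that in Var2-1 -0.335, the response difference -0.389, r over group means 0.212, and the adjusted p in KCl for NIA2 0.864. That fit called 31 averaged responses, 1 interaction, 933 KCl and 1104 KNO3 differences.

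Without both Var2-1 replicate 1 arrays NIA2 differed among accessions in KNO3 (adjusted p = 0.0559), and 59 interactions were called. Without the Col0 groups the difference among accessions in KCl was not called for NIA2 (adjusted p = 0.135) or NIR1 (0.698). That fit called 2113 KCl and 2273 KNO3 differences.

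With single arrays left out, the adjusted p among accessions in KCl ran from 0.0301 to 0.245 for NIA2 and from 0.0624 to 0.443 for NIR1, which was called without Kas2 KCl replicate 1, TAMM27 KNO3 replicate 2, Ts5 KCl replicate 1 or Var2-1 KCl replicate 2. In KNO3 it ran from 0.0706, without Var2-1 KNO3 replicate 1, to 0.522 for NIA2. The NIA2 response ran from -0.0829 to 0.484 in Ts5 and from -0.265 to 1.19 in Var2-1, and that of NIR1 in Var2-1 from -0.639 to 0.639. Interactions called ran from 20 to 45, the latter without Var2-1 KNO3 replicate 1.

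With the replicate block, the KCl levels of NIR1 were called among accessions (adjusted p = 0.0971), the averaged NIR1 response had an adjusted p = 0.0152, and no other call changed among the averaged and single-accession responses, the interaction, the levels among accessions and the 4 called KCl pairs. Same-numbered arrays of an accession deviated together with r from -0.199 to 0.689. Since only 13 of 21 pairs were over 0.1, the numbers were not treated as pairs. Even so, in 14 of 21, with all of Col0, TAMM27 and Var2-1, the arrays correlated best with their own number. The block gives each replicate number an effect shared by all accessions, so it does not test a link within an accession.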
